A study of Mus musculus with 16 samples.

Results

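The ATP-binding cassette (ABC) transporter family was described here as the protein-coding mouse genes whose symbols run from Abca to Abcg and go on with a number. The rule found 50 genes, and all 50 were among the 33072 genes of the count table. They comprised 16 members of subfamily A, 10 of B, 10 of C, 4 of D, 1 of E, 3 of F and 6 of G. Polyadenylated RNA was sequenced from 2 isogenic BALB/c mammary carcinoma lines, 67NR, which does not metastasize, and 4T1, which does. Subconfluent cells of each line received either 15 µM of CIX, an inhibitor of the cytosolic phospholipase A2 that frees arachidonic acid from membranes, or DMSO as vehicle, for 24 h. The 4 groups were therefore 67NR with vehicle, 67NR with CIX, 4T1 with vehicle and 4T1 with CIX, with 4 samples each, given as biological replicates and numbered from 1 to 16. Each line is a single established cell line, so that a difference between them is one between these lines and not between metastatic and non-metastatic tumors in general. Vehicle samples are also called untreated below.

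ABC proteins bind and hydrolyse ATP, and most members use it to move a substrate across a membrane. Subfamily A and part of G carry sterols and phospholipids, Abcb1, most Abcc and Abcg2 proteins pump drugs and organic anions out of cells, the D proteins and part of B sit in peroxisomes, lysosomes and mitochondria, and the E and F proteins are soluble and act on ribosomes. In cancer cells the family is known above all for efflux of cytostatic drugs, and several of the C proteins also export lipid mediators made from arachidonic acid.

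The 16 samples held between 21715737 and 29450629 counts, and 3 counts, taken as the smallest detectable level, corresponded to 0.107 to 0.137 on the counts-per-million scale (CPM), which covers counting error only. One 67NR vehicle sample, number 13, stood apart: 4.61% of 13016 genes lay more than 2-fold beyond the other 3 samples of its group, against 1.35% to 3.13% in the other samples. The defining markers fitted the labels in part. Epcam, Cdh1, Krt8 and Krt18 summed to 2411 to 2608 CPM in untreated and 2518 to 2759 CPM in CIX-treated 4T1, and to 1.07 to 5.15 CPM in 67NR samples, so that epithelial markers were nearly missing from the line labelled as a carcinoma. Epcam by itself fell with CIX in 4T1, from 315 to 186 CPM on average (log2 -0.78, SE 0.08, limma-voom adjusted p = 0.000128). The mesenchymal markers Vim, Cdh2 and Fn1 summed to 5931 to 6863 CPM in untreated and 9057 to 9926 CPM in CIX-treated 67NR, and to 2484 to 3298 and 4306 to 5209 CPM in 4T1. They did not go together. In untreated 67NR and untreated 4T1, Vim averaged 5077 and 1114 CPM and Cdh2 158 and 0.0205 CPM. Fn1 went the other way, at 1272 and 1654 CPM. Of the leukocyte markers, Cd68, which also marks lysosomes, stood at 7.57 to 11.8 CPM without and 34.4 to 40.3 CPM with CIX in 67NR, and at 51.4 to 87.6 and 132 to 198 CPM in 4T1. Ptprc reached at most 1.44 CPM and Cd3e at most 0.158 CPM in any sample. Pecam1 and Cdh5 summed to at most 2.42 CPM. The part of these shifts in the results on the transporters was not tested.

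Levels were compared between genes on the transcripts-per-million scale (TPM), that is per length of transcript, and between samples as CPM. Of the 50 members, 31 had a mean of at least 1 TPM in at least 1 group and 21 had it in every group, and no member was at 0 in all 16 samples. The family summed to 1215 ± 48.5 TPM in untreated 67NR and 1291 ± 71.4 TPM in untreated 4T1, and with CIX to 1272 ± 88.8 and 1226 ± 19.8 TPM (SD, n = 4 each), with overlapping ranges. The highest member in every group was Abcf1, a translation factor, at 262 to 307 TPM on average. Drug and organic anion exporters, a list of 11, summed to 242 ± 57.0 TPM in untreated 67NR and 296 ± 58.9 TPM in untreated 4T1. The 18 sterol and phospholipid exporters summed to 190 ± 18.3 and 152 ± 20.7 TPM. Abca2 was the highest of them by TPM in untreated 67NR and untreated 4T1, at 139 ± 18.2 and 70.7 ± 11.2 TPM (SD, n = 4 each). These ranks and sums depend on the length used, an average over all annotated transcripts of a gene, 1699 bases for Abca2 and 3766 for Abca3. In CPM, which takes no length, Abca3 (169) lay above Abca2 (90.3) in untreated 4T1. Abcc1 (291) likewise lay above Abcf1 (202) in CIX-treated 4T1. The heat map of the members by sample shows the levels in TPM.

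**Figure D1:**
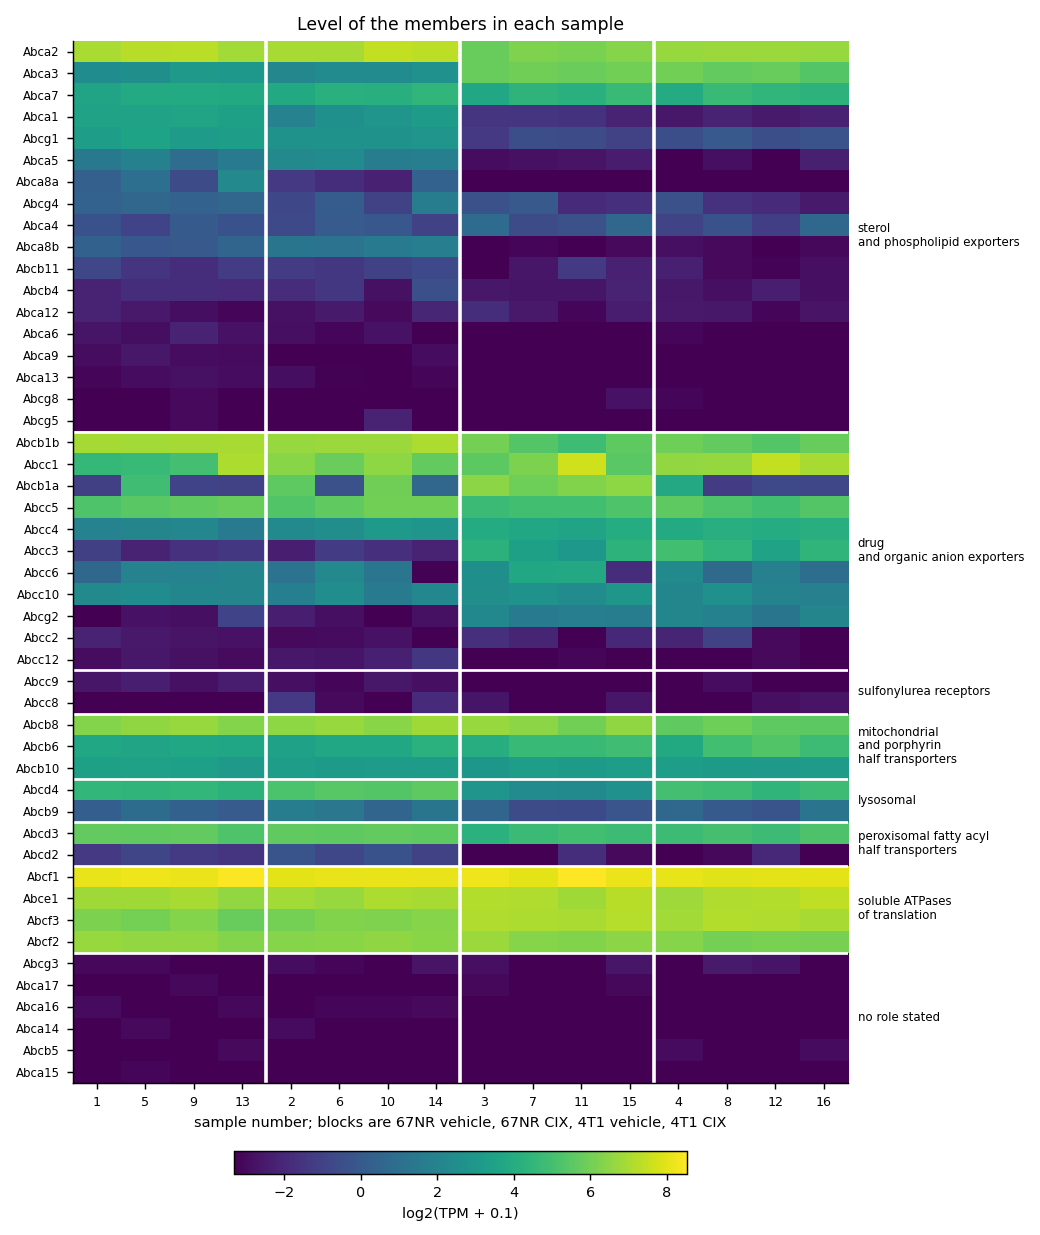
Level of the members (rows, grouped by role, without 2 that are not reported here) in each of the 16 samples (columns, numbered as in the labels), as log2(TPM + 0.1). The translation ATPases are high throughout, Abca1, Abcg1, Abca5, Abca8a and Abca8b are higher in the 67NR blocks, Abcc3 and Abcg2 in the 4T1 blocks, and Abcb1a changes from sample to sample.

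A gene had to reach 1 TPM in all but 3 samples of a comparison to be tested, by limma-voom over all such genes, with a call at a Benjamini-Hochberg adjusted p below 0.001. Of the 50 members, 23 were tested for the CIX response in 4T1, 26 in 67NR, 29 for the difference between the responses and 21 between the untreated lines. In 4T1, 2 of 23 members were called, Abcd4 upwards and Abcb1a downwards, where 9.28% of all genes tested were called, 5.33% higher and 3.96% lower with CIX. In 67NR, Abcd4 alone was called, 1 of 26, against 0.389% of all genes, 0.181% in the upward direction. The difference between the responses was called for Abcd4 alone, 1 of 29, against 7.86%. Between the untreated lines 8 of 21 members were called, 4 higher and 4 lower in 4T1, against 40.0% of all genes, 20.4% higher and 19.6% lower, so that the share among the members was near that of all genes. With an adjusted p below 0.05, 5 of 23 members passed in 4T1 and 42.7% of all genes did, and 5 of 26 passed in 67NR against 17.8%. The same threshold was passed by 6 of 29 differences between responses, against 29.3%, and by 13 of 21 differences between the untreated lines, against 67.4%.

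CIX and vehicle samples did not overlap for 6 of the 23 members tested in 4T1, where this held for 39.9% of all genes tested, and for 5 of 26 in 67NR, against 23.3%. The untreated lines did not overlap for 12 of 21 members, against 61.6% of all genes. The median log2 fold change of the tested members was 0.15 in 4T1 and 0.08 in 67NR, and -0.01 over all genes in both. The median absolute log2 fold change was 0.30 in 4T1, below the 0.39 of all genes, and 0.22 in 67NR, against 0.20. The comparisons of CIX with vehicle in 4T1, of the responses, and of the untreated lines share the 4T1 vehicle samples, and values of a member in them are not independent. In these bulk samples fewer cells that express a gene and less of its RNA per cell cannot be told apart.

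**Figure D2:**
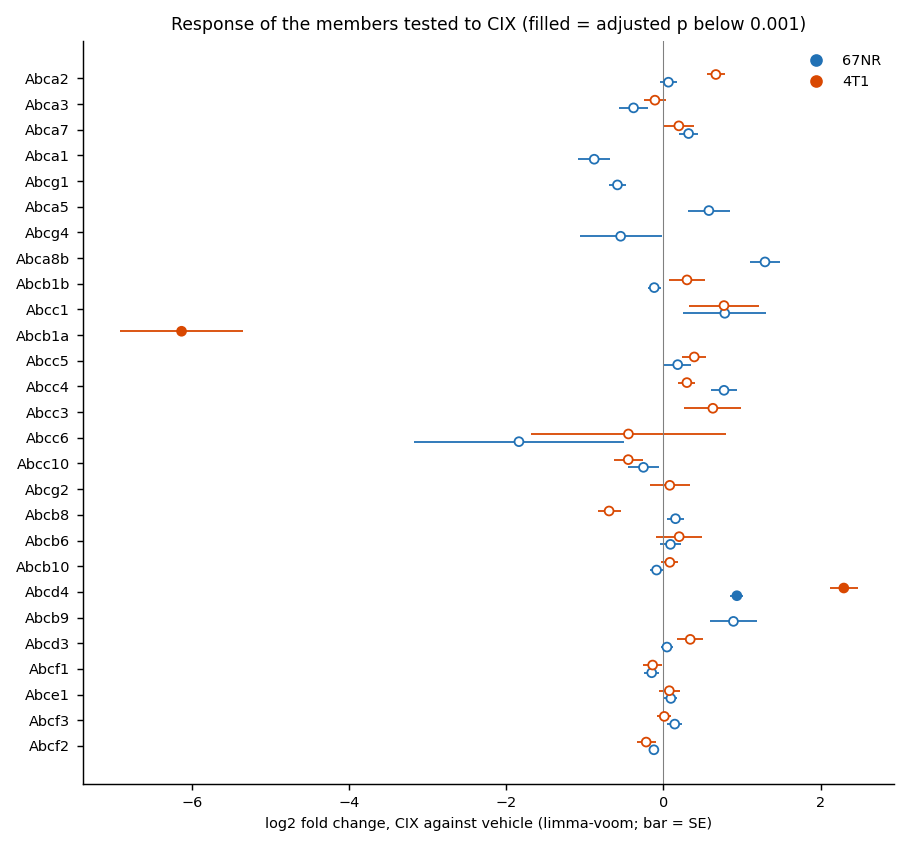
Log2 fold change of CIX against vehicle (x axis, limma-voom, bars are standard errors) for the reported members tested in 67NR (blue) or 4T1 (orange), ordered by role. Filled points passed an adjusted p of 0.001: Abcd4 in both lines and Abcb1a in 4T1, and most other members lie within 1 of 0.

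Abcb1a and Abcb1b encode the P-glycoproteins of the mouse, 2 broad pumps for hydrophobic drugs that together correspond to the single human MDR1 protein. Abcb1a (ENSMUSG00000040584, GRCm38 chromosome 5, 8660077 to 8748575, plus strand) lies just before Abcb1b (ENSMUSG00000028970, chromosome 5, 8798147 to 8866315, plus strand). Of the 31-base words in transcripts of Abcb1a, 28.2% also occurred in another gene, 21.7% in Abcb1b, 9.05% in the gene Gm42686 and 4.02% in Abcb4. Gm42686 lies on the opposite strand and is not in the count table. Of the words of Abcb1b, 17.4% occurred in another gene and 14.8% in Abcb1a, so that part of the reads of the pair fit both genes. The coding sequences of the transcripts Abcb1a-201 and Abcb1b-201, both 3828 bases long, were 88.0% identical over their aligned bases. The longest identical run was 338 bases, positions 1357 to 1694 of the coding sequence in Abcb1a and 1366 to 1703 in Abcb1b, and a read inside it fits both genes. Its beginning is shown with the 60 coding bases before it, with the shared run in capitals (GENCODE transcripts, GRCm38).
Abcb1a: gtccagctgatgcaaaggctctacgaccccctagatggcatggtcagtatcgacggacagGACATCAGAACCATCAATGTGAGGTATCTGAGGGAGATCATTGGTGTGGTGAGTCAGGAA
Abcb1b: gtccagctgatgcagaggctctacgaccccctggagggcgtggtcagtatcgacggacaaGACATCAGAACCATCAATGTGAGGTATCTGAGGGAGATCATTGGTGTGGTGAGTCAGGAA

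In the gap-free stretch of 120 coding bases where the alignment differed most, 38 bases differed, and a read from it can be told apart. It began at position 2128 of the coding sequence in Abcb1a and at 2134 in Abcb1b, and is printed with the differing bases in capitals.
Abcb1a: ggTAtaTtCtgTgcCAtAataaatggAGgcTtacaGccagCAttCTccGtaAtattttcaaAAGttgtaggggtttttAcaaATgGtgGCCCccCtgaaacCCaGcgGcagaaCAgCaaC
Abcb1b: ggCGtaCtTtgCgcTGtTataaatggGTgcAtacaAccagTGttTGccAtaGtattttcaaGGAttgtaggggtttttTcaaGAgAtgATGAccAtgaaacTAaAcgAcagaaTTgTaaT

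Abcb1a was high in some samples of a line and nearly absent from others. In untreated 4T1 it stood at 139, 95.3, 129 and 138 CPM in samples 3, 7, 11 and 15. With CIX it stood at 23.4 CPM in sample 4, and at 0.558, 0.894 and 0.805 CPM in samples 8, 12 and 16, so that even the highest CIX sample was below the lowest vehicle sample. Abcb1a fell by 6.14 on the log2 scale (SE 0.79, limma-voom adjusted p = 0.000404), from 125 ± 20.4 to 6.42 ± 11.3 CPM (SD, n = 4 each). With all 8 samples in the fit, only the level of sample 4 kept the gene above the filter, which allows 3 low samples. The call was kept in 1 of 8 fits that left out a sample, the one without sample 4, in which the log2 fold change was -7.36 and the gene passed the filter through the vehicle samples. Without 4T1 samples 3, 7, 8, 11, 12, 15 or 16 the adjusted p ran up to 0.00262 in limma-voom, and it was 0.0118 in edgeR, with a log2 fold change of -4.30, 0.00122 in DESeq2 and 0.00933 in limma-voom with all 16 samples in a common fit.

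In 67NR the same gene was high in some samples of either treatment. Among vehicle samples Abcb1a stood at 0.633, 49.4, 0.673 and 0.722 CPM in samples 1, 5, 9 and 13. Among CIX samples it stood at 83.7, 1.15, 99.6 and 2.26 CPM in samples 2, 6, 10 and 14. Sample 5 with vehicle and samples 2 and 10 with CIX were thus far above the 5 others. All CIX samples lay above vehicle samples 1, 9 and 13, so that the groups overlapped through vehicle sample 5 alone. Too many samples were below 1 TPM for a test. In the fit without a filter the log2 fold change was 2.67 (limma-voom adjusted p = 0.582). The difference between the responses, that of 4T1 minus that of 67NR, was -8.79 (SE 2.58, limma-voom adjusted p = 0.0178) and was not called. Abcb1a entered that test through its level in 4T1 alone, and the 67NR part of it depended on which samples were high. Untreated 4T1 lay above untreated 67NR by 5.98 on the log2 scale (SE 0.97, limma-voom adjusted p = 0.000459), and all 4T1 vehicle samples were higher than the highest 67NR vehicle sample. This call also rested on few samples, and with all samples in the fit only sample 5 of 67NR kept the gene in the test. The call was kept without 67NR sample 5, with a log2 fold change of 7.42, and without 4T1 sample 7. In the fit without sample 5 the gene passed the filter through the 4T1 vehicle samples, where it is high. It was lost in the 6 other fits with a sample left out, in edgeR (adjusted p = 0.0527), in DESeq2 (adjusted p = 0.0289), in the common fit of all 16 samples by limma-voom (adjusted p = 0.00442) and on log2(TPM + 1).

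Abcb1b did not share this pattern. It stood at 153, 148, 151 and 165 CPM in 67NR vehicle samples 1, 5, 9 and 13, and at 139, 139, 134 and 166 CPM in 67NR CIX samples 2, 6, 10 and 14. In 4T1 it stood at 79.2, 48.1, 35.5 and 55.3 CPM in vehicle samples 3, 7, 11 and 15, and at 77.4, 63.3, 53.6 and 69.3 CPM in CIX samples 4, 8, 12 and 16. CIX and vehicle overlapped in both lines, with log2 fold changes of 0.30 (SE 0.23, limma-voom adjusted p = 0.31) in 4T1 and -0.12 (SE 0.08, limma-voom adjusted p = 0.36) in 67NR. All 67NR samples lay above all 4T1 samples, and the untreated lines differed by -1.57 (SE 0.21, limma-voom adjusted p = 0.000123), that is 2.96-fold lower in 4T1, with the call kept in 8 of 8 fits that left out a sample. In the 3 samples of 67NR with a high level of Abcb1a, Abcb1b stood at 134 to 148 CPM, and in the other 5 at 139 to 166 CPM, ranges that overlapped.

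The sum of both genes is free of the question to which of them a shared read was given. It was 180 ± 32.6 CPM in untreated and 72.3 ± 20.05 CPM in CIX-treated 4T1 (SD, n = 4 each). All CIX samples, at 54.5 to 101 CPM, lay below all vehicle samples, at 143 to 218 CPM. The mean of log2(CPM + 1) was lower by 1.32 (exact 2-sided permutation test, p = 0.0286, the smallest value that 4 against 4 samples allow). With the pair added up before the fit, the log2 fold change was -1.35 (SE 0.20, limma-voom adjusted p = 0.000722). In 67NR the sum was 167 ± 21.1 CPM without and 191 ± 44.6 CPM with CIX, and the groups overlapped (difference 0.17, exact 2-sided permutation test, p = 0.371). The responses of the sum differed by -1.51 (SE 0.27, limma-voom adjusted p = 0.000749). The untreated lines had nearly the same sum, with a difference of 0.09 (exact 2-sided permutation test, p = 0.6), but of different makeup: Abcb1a was 63.6% to 78.4% of it in 4T1 and 0.412% to 25.0% in 67NR.

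**Figure D3:**
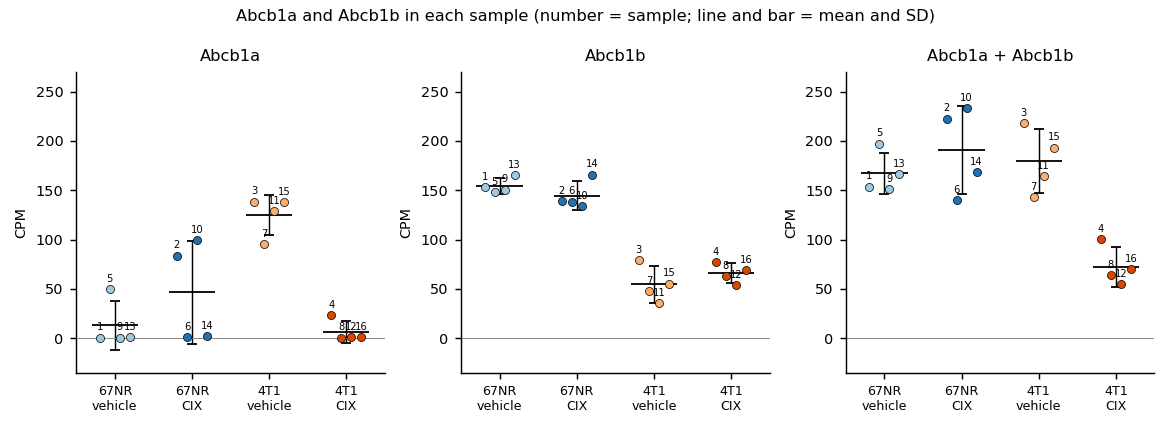
CPM of Abcb1a, of Abcb1b and of their sum (y axes) in each of the 16 samples, by group, with the sample number beside each point. The line is the mean and the bar the SD of 4 samples. Abcb1a is high in all 4T1 vehicle samples and in samples 2, 5 and 10 of 67NR, Abcb1b lies at 134 to 166 CPM in 67NR and lower in 4T1, and the sum is lowest in 4T1 with CIX.

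RefSeq promoter sequences (250 bases before to 50 after the start of the gene, GRCm38.p6) were matched to 38 of the 50 members by symbol. They were searched on both strands for the E-box CACGTG, the GC box GGGCGG, the CCAAT box and the TATA box TATAAA. The E-box occurred in 6 of the 38 and in 7.15% of all 32851 promoters, the GC box in 18 and 35.7%, the CCAAT box in 15 and 37.4%, and the TATA box in 6 and 13.6%. The windows of the pair of P-glycoprotein genes are printed because their levels differed so much within a line, with the letters of any motif in capitals. That of Abcb1a, chr5:8566841-8567140 on the plus strand, starts from a RefSeq start 92986 bases before the GENCODE start of the gene and held none of the 4 motifs. That of Abcb1b, chr5:8797897-8798196 on the plus strand, held 2 CCAAT boxes, one of them on the minus strand, and a GC box.
Abcb1a: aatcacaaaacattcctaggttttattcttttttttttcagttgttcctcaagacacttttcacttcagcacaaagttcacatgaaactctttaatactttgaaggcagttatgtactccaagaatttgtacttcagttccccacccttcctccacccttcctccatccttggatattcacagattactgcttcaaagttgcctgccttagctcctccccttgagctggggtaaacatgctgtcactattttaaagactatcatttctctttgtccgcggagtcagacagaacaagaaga
Abcb1b: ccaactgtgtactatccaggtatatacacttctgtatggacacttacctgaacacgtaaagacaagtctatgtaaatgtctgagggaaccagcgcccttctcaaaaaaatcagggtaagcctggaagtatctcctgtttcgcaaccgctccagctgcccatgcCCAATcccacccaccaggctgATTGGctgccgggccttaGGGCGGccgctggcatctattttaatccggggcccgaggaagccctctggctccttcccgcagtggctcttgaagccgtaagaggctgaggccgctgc

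The C proteins were the other main part of the drug exporters. Abcc4, which exports cyclic nucleotides and prostaglandins, stood at 10.3, 11.0, 12.0 and 8.07 CPM in 67NR vehicle samples and at 40.0, 34.5, 32.7 and 40.0 CPM in 4T1 vehicle samples. The lines did not overlap, and Abcc4 was 3.55-fold higher in untreated 4T1 (log2 1.83, SE 0.14, limma-voom adjusted p = 3.87e-06). With CIX it stood at 14.6, 16.0, 22.6 and 19.2 CPM in 67NR and at 41.9, 47.4, 45.3 and 48.4 CPM in 4T1, in both lines above every vehicle sample. Neither difference was called, at 0.77 (SE 0.17, limma-voom adjusted p = 0.0158) in 67NR and 0.30 (SE 0.11, limma-voom adjusted p = 0.0521) in 4T1, and the responses differed by -0.48 (SE 0.20, limma-voom adjusted p = 0.0863).

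Abcc1, an exporter of glutathione conjugates and leukotriene C4, varied more within groups than between them. It stood at 55.6, 59.5, 71.6 and 324 CPM in 67NR vehicle samples, the last being sample 13, and at 208, 134, 209 and 119 CPM in 67NR CIX samples. In 4T1 it stood at 101, 162, 466 and 95.2 CPM with vehicle and at 225, 232, 418 and 290 CPM with CIX. The groups overlapped in each line, with log2 fold changes of 0.78 (SE 0.53, limma-voom adjusted p = 0.34) in 67NR and 0.77 (SE 0.45, limma-voom adjusted p = 0.19) in 4T1. Without sample 13 the 67NR groups no longer overlapped and the value was 1.39 (SE 0.23, limma-voom adjusted p = 0.00659), which was not called either. In 4T1 the overlap likewise rested on vehicle sample 11, and without it the value of Abcc1 was 1.27 (limma-voom adjusted p = 0.00543), again not called. Sample 11 was singled out by its Abcc1 value, so the lost overlap follows from that choice. Its library, with 2.65% of genes apart, did not stand out as that of sample 13 did. Abcc5, which exports cyclic nucleotides, was at 70.3 ± 12.3 CPM in untreated 67NR and 43.9 ± 5.89 CPM in untreated 4T1 (SD, n = 4 each) without overlap, a log2 difference of -0.68 (SE 0.15, limma-voom adjusted p = 0.00333) that was not called. With CIX it lay at 62.1 to 93.4 and at 45.7 to 70.8 CPM, overlapping the vehicle samples in both lines.

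Abcg2, the breast cancer resistance protein, was found almost only in 4T1. It stood at 4.45, 2.84, 3.40 and 3.00 CPM in vehicle and at 4.49, 3.69, 2.47 and 4.27 CPM in CIX samples of 4T1, with a log2 fold change of 0.08 (SE 0.25, limma-voom adjusted p = 0.82). All 8 samples of 67NR lay at or below 0.467 CPM, and 7 of them, all but sample 13, held at most 3 counts. Abcc3, an exporter of bile salts and glucuronides named here after its values were seen, stood at 14.5 to 34.5 CPM in untreated 4T1, 21.1 to 58.0 CPM in CIX-treated 4T1 and at most 0.673 CPM in any 67NR sample. The filter left both genes out of the comparison of the untreated lines because 4 samples were low. In the fit without a filter, Abcc3 was higher in untreated 4T1 by 5.69 (SE 0.60, limma-voom adjusted p = 1.85e-05) and Abcg2 by 5.40 (SE 0.67, limma-voom adjusted p = 6.02e-05). Of the 9 drug exporters tested in 4T1, 6 had a positive and 3 a negative log2 fold change, and Abcb1a was the only one called, 1 of 9, where 9.28% of all genes were called and 3.96% were called lower. Abcc6 and Abcc10 overlapped in both lines, and Abcc2 and Abcc12 stayed below 1 CPM in every sample.

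Among lipid exporters, Abca1 and Abcg1 stood out by line. Abca1 (ENSMUSG00000015243, chromosome 4, 53030787 to 53159895, minus strand) loads cholesterol and phospholipid onto apolipoprotein A-I, and Abcg1 (ENSMUSG00000024030, chromosome 17, 31057675 to 31117988, plus strand) passes cholesterol on to HDL. Abca1 stood at 49.8, 48.6, 51.3 and 48.5 CPM in 67NR vehicle samples 1, 5, 9 and 13, and at 1.03, 1.05, 0.990 and 0.492 CPM in 4T1 vehicle samples 3, 7, 11 and 15. Abcg1 stood at 15.3, 18.1, 14.0 and 16.2 CPM in the former and at 0.453, 0.917, 0.861 and 0.574 CPM in the latter. The filter left out both, since 4 samples were low, and in the fit without a filter the log2 differences were -5.87 (SE 0.24, limma-voom adjusted p = 3.03e-08) and -4.55 (SE 0.27, limma-voom adjusted p = 2.68e-07).

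With CIX both genes lay lower in 67NR. Abca1 stood at 17.1, 27.3, 30.5 and 39.5 CPM in samples 2, 6, 10 and 14, all below the 4 vehicle samples and with a wider spread, at 28.6 ± 9.24 against 49.6 ± 1.27 CPM (SD, n = 4 each). Abcg1 stood at 10.8, 10.4, 10.4 and 11.0 CPM in the same samples, again all below vehicle. Neither passed 0.001, with -0.88 (SE 0.20, limma-voom adjusted p = 0.0196) for Abca1 and -0.59 (SE 0.10, limma-voom adjusted p = 0.00708) for Abcg1, and without sample 13 the values were -0.88 and -0.56. In 4T1 Abca1 was low, at 0.492 to 1.05 CPM with vehicle and 0.283 to 0.558 CPM with CIX, and Abcg1 stood at 0.970, 1.37, 1.00 and 1.13 CPM with CIX, the latter above every vehicle sample of 4T1. Both genes entered the test of the difference between responses through their level in 67NR alone, since in 4T1 their group means were under 1 TPM. The responses of Abcg1 differed by 1.27 (SE 0.30, limma-voom adjusted p = 0.00484) and those of Abca1 by -0.17 (SE 0.63, limma-voom adjusted p = 0.87), neither of them called.

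Abca2 and Abca3, transporters of the endolysosomal system and of lung surfactant lipids, differed between the lines in opposite directions. Abca2 stood at 174, 205, 207 and 169 CPM in untreated 67NR and at 71.0, 95.04, 95.5 and 99.8 CPM in untreated 4T1, and was 2.11-fold lower in 4T1 (log2 -1.08, SE 0.12, limma-voom adjusted p = 3.89e-05). Abca3 stood at 15.8, 17.5, 24.8 and 24.9 CPM in untreated 67NR and at 153, 177, 169 and 175 CPM in untreated 4T1, and was 8.21-fold higher in 4T1 (log2 3.04, SE 0.15, limma-voom adjusted p = 4.46e-07). Of its 31-base words 12.1% occur in other genes, 8.81% in D330041H03Rik, a gene of the opposite strand outside the count table. Both calls were kept in 8 of 8 fits that left out a sample. Abca2 stood at 142, 145, 148 and 140 CPM in 4T1 with CIX, above all vehicle samples, with a log2 fold change of 0.67 (SE 0.11, limma-voom adjusted p = 0.00168) that was not called, and in 67NR it was 0.06 (SE 0.11, limma-voom adjusted p = 0.74). The difference between these responses was 0.60 (SE 0.16, limma-voom adjusted p = 0.0121). Abca3 overlapped between CIX and vehicle in both lines.

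Abca7, a phospholipid exporter of phagocytic cells, was close in all groups, with means of 14.1, 17.9, 19.3 and 20.7 TPM in 67NR vehicle, 67NR CIX, 4T1 vehicle and 4T1 CIX, and no comparison called it. Abcb4, the phosphatidylcholine flippase of bile canaliculi, was near the floor, at 0.0805 to 1.31 CPM over all samples, and was tested nowhere. The A subfamily members Abca5, Abca8a and Abca8b, named here after their values were seen, were also found mainly in 67NR. Abca8b stood at 5.90, 4.13, 4.32 and 7.10 CPM with vehicle and at 12.1, 11.2, 13.6 and 15.7 CPM with CIX in 67NR, without overlap (log2 1.29, SE 0.19, limma-voom adjusted p = 0.00366, not called), and at most 0.202 CPM in 4T1. Abca5 stood at 5.19 to 10.8 CPM without and 8.98 to 15.6 CPM with CIX in 67NR, and at most 0.322 CPM in 4T1. Abca8a stood at 2.18, 3.69, 1.07 and 9.43 CPM in 67NR vehicle samples, at 0.616, 0.371, 0.228 and 2.31 CPM in 67NR CIX samples, with overlap, and at 0 in all 8 samples of 4T1. Abcg5 and Abcg8, the sterol exporters of gut and liver, stayed at or below 0.137 CPM in every sample.

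**Figure D4:**
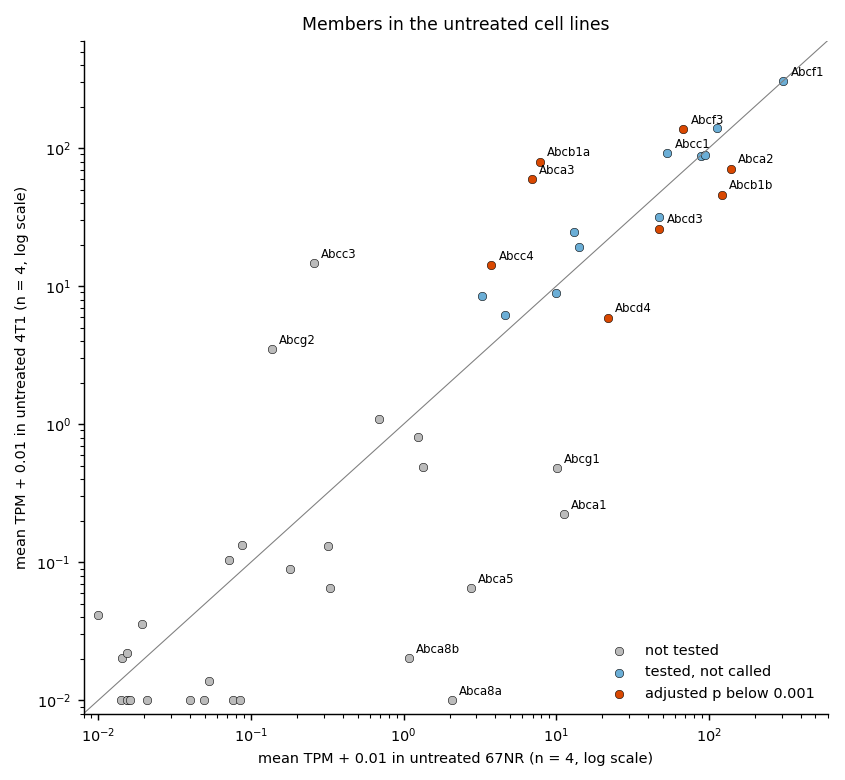
Mean TPM + 0.01 of each reported member in untreated 67NR (x axis) and untreated 4T1 (y axis), both on log scales, with the line of equal levels. Orange points passed an adjusted p of 0.001, blue points were tested and did not, and grey points were left out by the filter, among them Abca1 and Abcg1 far below the line and Abcc3 and Abcg2 far above it.

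Abcd4 was the only member called with CIX in both lines. It encodes a lysosomal ABC protein needed to release vitamin B12 into the cytosol (ENSMUSG00000021240, chromosome 12, 84601464 to 84617413, minus strand). In 67NR it stood at 33.9, 31.7, 32.5 and 29.9 CPM in vehicle samples 1, 5, 9 and 13, and at 55.3, 64.9, 59.6 and 69.0 CPM in CIX samples 2, 6, 10 and 14. In 4T1 it stood at 10.0, 7.16, 7.14 and 8.37 CPM in vehicle samples 3, 7, 11 and 15, and at 47.1, 42.0, 32.8 and 41.5 CPM in CIX samples 4, 8, 12 and 16. No CIX sample overlapped a vehicle sample of its line, and with CIX the level of 4T1 came to that of untreated 67NR or above it.

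Abcd4 rose 4.91-fold in 4T1 (log2 2.30, SE 0.17, limma-voom adjusted p = 4.94e-05) and 1.91-fold in 67NR (log2 0.93, SE 0.08, limma-voom adjusted p = 0.000659). The response was larger in 4T1 by 1.36 on the log2 scale (SE 0.19, limma-voom adjusted p = 9.4e-05), and the untreated level was 3.96-fold lower in 4T1 (log2 -1.99, SE 0.13, limma-voom adjusted p = 1.5e-06). The calls in 4T1 and of the response difference were kept in 8 of 8 and in 16 of 16 fits that left out a sample. In 67NR the log2 fold change stayed between 0.89 and 1.01, but the call was kept only without sample 2, and without sample 1, 5, 6, 9, 10, 13 or 14 the limma-voom adjusted p was 0.00141 to 0.00499. It was also lost without scaling beyond library size (limma-voom adjusted p = 0.00105) and on log2(TPM + 1) (limma adjusted p = 0.00134). Between 0 and 69 of all genes were called in 67NR in these fits with 7 samples, against 45 with all 8. Only 3.51% of the 31-base words of Abcd4 occurred in other genes. The annotation lists 10 transcripts, of which 3 are protein-coding and 4 have a retained intron, and the value per gene counts them all.

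The other organelle transporters moved less. Abcb8, a transporter of the inner mitochondrial membrane, was lower with CIX in every sample of 4T1. It stood at 121, 102, 78.4 and 106 CPM in vehicle and at 61.9, 73.4, 60.1 and 58.1 CPM in CIX samples, a log2 fold change of -0.69 (SE 0.15, limma-voom adjusted p = 0.00468). This difference was not called. In 67NR CIX and vehicle overlapped, with 0.15 (SE 0.10, limma-voom adjusted p = 0.34). The responses of Abcb8 differed by -0.85 (SE 0.18, limma-voom adjusted p = 0.00275), which passed 0.001 in 1 of 16 fits that left out a sample, without 4T1 sample 11, at -0.97 (limma-voom adjusted p = 0.000502). Abcb6 and Abcb10 overlapped in both lines, and 52.1% of the 31-base words of Abcb6 lie in an overlapping transcript of the same strand, of a gene that is not in the count table.

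Abcd3, a peroxisomal transporter of fatty acyl groups, stood at 87.0, 81.6, 83.3 and 69.2 CPM in untreated 67NR and at 30.02, 42.7, 51.0 and 43.0 CPM in untreated 4T1. It was 1.97-fold lower in 4T1 (log2 -0.98, SE 0.15, limma-voom adjusted p = 0.000263), with a call kept in 3 of 8 fits that left out a sample and lost, at an adjusted p of up to 0.00126 in limma-voom, without 67NR samples 1, 5 or 9 or 4T1 samples 7 or 15. It was also lost on log2(TPM + 1). Its log2 fold change with CIX was 0.34 (SE 0.17, limma-voom adjusted p = 0.13) in 4T1 and 0.04 (SE 0.08, limma-voom adjusted p = 0.74) in 67NR, with overlap. Its relative Abcd2 stayed at or below 1.35 CPM. Abcb9, a lysosomal peptide transporter named here after its values were seen, overlapped in both lines, at 0.89 (SE 0.30, limma-voom adjusted p = 0.0759) in 67NR.

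**Figure D5:**
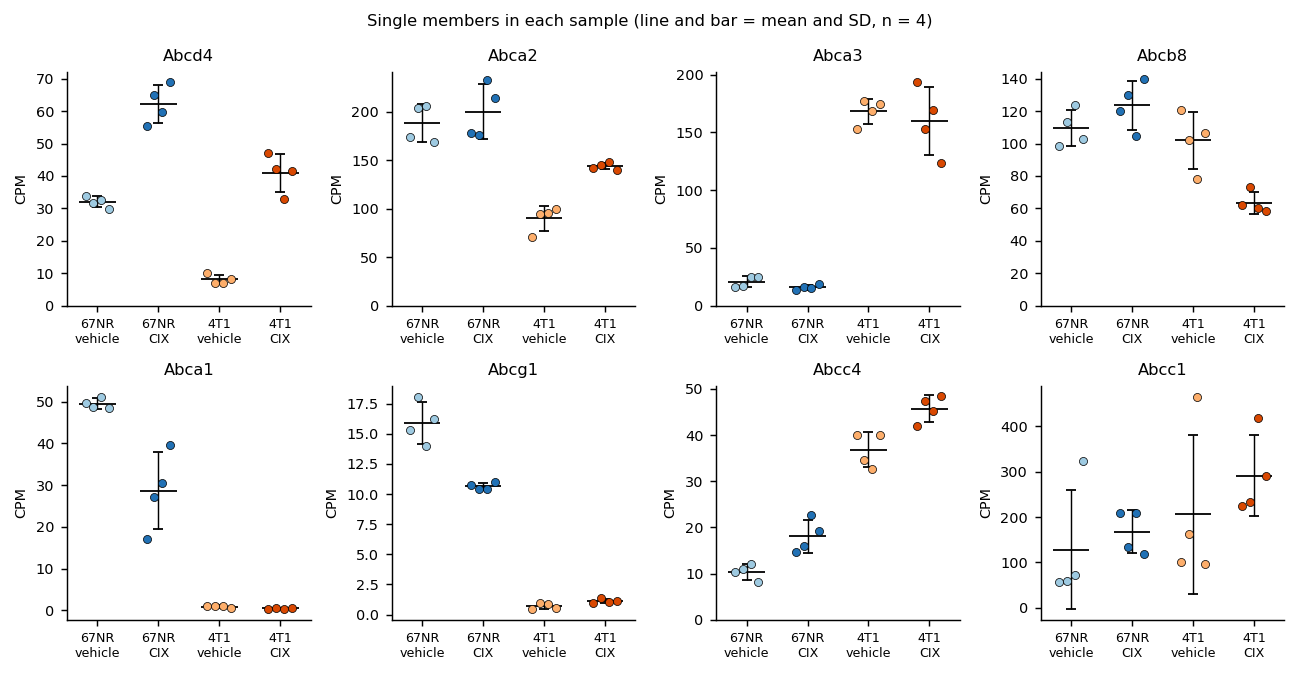
CPM (y axes) of 8 members in each sample of the 4 groups, with the mean (line) and SD (bar) of 4 samples. Abcd4 is higher with CIX in both lines, Abca2 and Abcb8 part from vehicle in 4T1, Abca1 and Abcg1 in 67NR and Abcc4 in both, Abca3 is high in 4T1 throughout, and Abcc1 has single high samples in both vehicle groups.

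The soluble members that act on ribosomes were even across treatments. Abce1, which splits ribosomes for recycling, stood at 184 to 199 CPM in 3 untreated 67NR samples and at 167 CPM in the fourth, and the group means of Abce1 were 113, 121, 139 and 140 TPM. Abcf1 stood between 186 and 282 CPM in all 16 samples. The 4 genes Abce1, Abcf1, Abcf2 and Abcf3 had absolute log2 fold changes of at most 0.22 in 4T1 and at most 0.15 in 67NR, and none was called for a response. Abcf3 alone differed between the lines, at 57.5, 51.3, 62.3 and 45.3 CPM in untreated 67NR and at 105, 101, 102 and 105 CPM in untreated 4T1, a 1.90-fold higher level (log2 0.93, SE 0.10, limma-voom adjusted p = 2.51e-05) that was called in 8 of 8 fits with a sample left out.

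The filter left 21 members out of every comparison, and the highest value among them was 4.62 TPM, of Abca8a. The others were Abca4, Abca6, Abca9, Abca12 to Abca17, Abcb4, Abcb5, Abcb11, Abcc2, Abcc8, Abcc9, Abcc12, Abcd2, Abcg3, Abcg5 and Abcg8. They include the sulfonylurea receptors Abcc8 and Abcc9, parts of ATP-sensitive potassium channels, which stayed at or below 0.501 CPM, and 6 members for which no role was listed. Another 8 members, Abca1, Abca5, Abca8b, Abcb9, Abcc3, Abcg1, Abcg2 and Abcg4, were tested for the responses but not between the untreated lines. The filter thus removed several members that were found in one line and hardly in the other. Without it, 19 of 50 members were called between the untreated lines, against 28.4% of all 22724 genes then tested. Of the members 6 were higher and 13 lower in 4T1, and of all genes 3286 were higher and 3175 lower. The 13 include Abca6, Abca9, Abca13 and Abcc9, which held at most 10 counts in any untreated 67NR sample and 0 in untreated 4T1.

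Of 26 genes related to the transporters by function, 1 of 19 tested was called in 4T1, against 9.28% of all genes, and 0 of 19 in 67NR, against 0.389%. For the difference between responses 2 of 20 were called, Rxra and Npc1, against 7.86%, and between the untreated lines 10 of 18, against 40.0%. Rxra, the partner of the liver X receptors that drive Abca1 and Abcg1, rose 2.10-fold with CIX in 4T1 (log2 1.07, SE 0.12, limma-voom adjusted p = 0.000205) and was 2.30-fold lower in untreated 4T1 than in 67NR (limma-voom adjusted p = 1.99e-05). Nr1h3, the liver X receptor alpha gene, was 3.32-fold lower in untreated 4T1 (log2 -1.73, SE 0.25, limma-voom adjusted p = 0.000239), at 1.94 against 6.59 CPM. Nr1h2, the liver X receptor beta gene, was at 112 CPM in untreated 4T1 and 135 CPM in untreated 67NR, a difference that was not called (log2 -0.28, SE 0.25, limma-voom adjusted p = 0.34). Of ABC proteins with other symbols, the peptide transporters Tap1 and Tap2 were 5.04-fold and 2.20-fold higher in untreated 4T1 (limma-voom adjusted p = 6.38e-05 and 0.000433). Npc1, which releases cholesterol from lysosomes, differed between the responses by -1.28 (SE 0.21, limma-voom adjusted p = 0.000413), with -0.64 (SE 0.15, limma-voom adjusted p = 0.0078) in 4T1 and 0.64 (SE 0.15, limma-voom adjusted p = 0.0193) in 67NR, neither called by itself.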

How the data were processed

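The 50 members, the lists and the named genes were chosen with earlier results of these data known. The authors quantified single-end reads with Salmon (version 0.12 per the submitters' processing notes) against the Ensembl GRCm38 transcriptome. They brought the output to gene level with tximport, and the deposited values are estimated counts without normalization. The notes name the human build GRCh38, but the gene identifiers are of mouse. The lowest values above 0 lay near 0.97 at every transcript length, as in counts scaled back by length. All 16 columns were assigned by label. The counts were rounded, and an approximate TPM was made with the average length of each gene's transcripts in GENCODE's GRCm38 annotation, which held 32832 of the 33072 genes. A gene was left out of a comparison where over 3 samples were under 1 TPM, and out of the difference between responses if this held in both lines. limma-voom with TMM (limma 3.58.1, edgeR 4.0.16, R 4.3.3) was fitted on all other genes, in the 8 samples of each comparison or all 16 for the interaction, with Benjamini-Hochberg adjustment. This is a 2-sided test. CPM uses TMM-scaled library sizes. The total counts per sample, 21715737 to 29450629, set the precision at low levels.

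Named were Abcb1a, Abcb1b, each member called at 0.001 in any comparison, the highest member of each subfamily by TPM in vehicle samples, and 8 lipid and drug exporters, 18 genes in all. All others named were chosen after their values were seen. Results for 2 members and 1 marker are not reported here. Alternatives were edgeR's quasi-likelihood test, DESeq2 1.42.0, its size factors, no scaling, other filters, log2(TPM + 1), all samples in a common fit, a threshold of 0.05 and leaving out each sample. Of the tests, only limma-voom for CIX against vehicle was checked on simulated data, which held no samples that stand apart. That check therefore cannot decide on calls that rest on single samples, such as those of Abcb1a, and no conclusion is drawn from it. Shared sequence was measured as words of 31 bases found on either strand in transcripts of another annotated gene, in the count table or not. It can therefore overstate how many reads of this table fit another gene. Replicates of a group differed by more than sampling noise, with a chi-square of at least 16.7 per gene over 24 pairs.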

Additional observations from a re-analysis of the deposited data

Results flagged for a closer look

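In 72 groups of 4 samples of the named members, the highest or the lowest sample lay far from the other 3 by Dixon's test in 9. A rate of 1 in 20 would give about 3.6, but it holds for independent groups of normal values. These groups share the same 16 samples, the genes were chosen with the data known, and some values are near the floor. The 9 therefore cannot be read as an excess over 3.6. Abcb1a stood out at 49.4 CPM in 67NR vehicle sample 5, against 0.633 to 0.722 CPM, and at 23.4 CPM in 4T1 CIX sample 4, against 0.558 to 0.894 CPM. Sample 13 of 67NR stood out for Abcc1, at 324 CPM against 55.6 to 71.6 CPM, and for Abcg2, at 0.467 CPM against 0 to 0.0445 CPM. Abcb1b stood at 166 CPM in 67NR CIX sample 14, against 134 to 139 CPM, and Abcf1 at 219 CPM in 67NR CIX sample 6, against 213 to 214 CPM. Abca2 was low in 4T1 vehicle sample 3, at 71.0 CPM against 95.04 to 99.8 CPM. In 4T1 vehicle sample 15 Abca1 was low, at 0.492 CPM or 12 counts, and Abcb4 was high, at 0.246 CPM or 6 counts. The response of Abcd4 to CIX differed between the lines by 1.36 on the log2 scale in the test of the difference itself. No cause of these values was tested.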

How the results depend on the processing

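No paired analysis was possible because the sample numbers in the labels are not shared between groups, and no pairing was taken from their order. The number of members called in 4T1, 2, became 5 with an adjusted p below 0.05, 1 in edgeR, 4 in DESeq2 and 4 with all 16 samples in a common fit. In 67NR the 1 call became 5 below 0.05, 4 in DESeq2, 0 without scaling and 0 on log2(TPM + 1). The 1 called difference of responses became 6 below 0.05, 3 in DESeq2 and 2 on log2(TPM + 1), and the 8 calls between the untreated lines became 13 below 0.05 and 19 without a filter. Leaving out 1 sample gave 1 to 2, 0 to 1, 1 to 2 and 8 to 11 calls. The last range is not of a fixed set of members: Abcb1a was lost in 6 and Abcd3 in 5 of the 8 fits, and a member low in a line, such as Abcg2, could enter the test once 3 samples of that line were left. The summed log2 change of Abcb1a and Abcb1b then ran from -1.49 to -1.20 in 4T1, from 0.06 to 0.31 in 67NR and from -0.00349, without 4T1 sample 3, to 0.20 between the untreated lines. Over all genes, calls in 4T1 went from 1084 to 3096 in DESeq2, 2688 in the common fit and 4984 below 0.05, in 67NR from 45 to 1041, 151 and, on log2(TPM + 1), 27, and for the difference of responses from 993 to 1981 in DESeq2. On log2(TPM + 1) the split of higher and lower calls went from 622 and 462 to 462 and 548 in 4T1, and from 607 and 386 to 493 and 548 for the difference of responses. The following named members changed sign, none of them in a comparison that called it, and the cause was not tested. Abcf3 in 4T1 was -0.049 without scaling, -0.063 on log2(TPM + 1) and -0.00065 in the common fit. For the difference of responses Abca1 was 0.61 on log2(TPM + 1), Abcc1 0.11 in edgeR, 0.11 in DESeq2 and 0.030 without a filter, Abce1 0.014 without a filter, and Abcf1 -0.038 without scaling and -0.073 on log2(TPM + 1). With 1 sample left out, values in 4T1 ran from -0.21 to 0.015 for Abca3, -0.017 to 0.18 for Abce1, -0.024 to 0.055 for Abcf3 and -0.025 to 0.28 for Abcg2, and in 67NR from -0.015 to 0.13 for Abca2 and -0.010 to 0.079 for Abcd3. For the difference of responses they ran from -0.43 to 0.00288 for Abca1, -0.30 to 0.00373 for Abca7, -0.60 to 0.49 for Abcc1, -0.11 to 0.088 for Abce1, -0.077 to 0.12 for Abcf1 and -0.41 to 1.14 for Abcg2, and between the lines from -0.22 to 0.039 for Abcb8.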
